A study of Chlorocebus aethiops with 12 samples.

Results

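The difference between the responses of 2 glucocorticoid receptor mutants to dexamethasone was measured, as the dexamethasone effect with the Y30E receptor minus the dexamethasone effect with the Y30F receptor. Y30E and Y30F are human glucocorticoid receptors in which a tyrosine of the N-terminal part is replaced by glutamate or by phenylalanine. All 12 arrays of the study entered the comparison, 3 in each of 4 groups. The groups were Y30F-DMSO, Y30F-DEX, Y30E-DMSO and Y30E-DEX. COS-1, a kidney cell line of the African green monkey, was used throughout. In all groups the cells were transiently transfected with the FLAG-tagged receptor (FLAG-hGR) and with mouse CCRP carrying a V5 tag (mCCRP-V5), a co-chaperone of nuclear receptors. At 40 h after transfection the cells were given 100 nM dexamethasone, a synthetic glucocorticoid, or 0.1% DMSO, its vehicle, for 6 h. Of 41000 distinct probes on the array, 23582 were well above background on all 12 arrays, and they gave 18424 transcript records to test, of 32379 on the array. A record is the transcript or probe identifier that the files give, represented by its brightest probe. Of the 18424 records, 13555 were RefSeq protein-coding transcripts (NM), 645 were other RefSeq records, and 4224 had no RefSeq record.

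Without hormone the glucocorticoid receptor is held in the cytoplasm in a complex with chaperones and co-chaperones. Hormone binding sends it to the nucleus, where it raises or lowers the transcription of target genes. One activation surface lies in its N-terminal part and another, which depends on hormone, in its C-terminal ligand-binding part, and contact between these parts is called the N/C interaction. The series title sets receptors with and without this interaction against each other, and the labels do not say which mutant has it. None of the 4 groups lacked a transfected receptor, and the share of cells that took up the plasmids is not given in the labels. The label for the construct lists the CCRP plasmid alone for Y30F samples and the receptor plasmid alone for Y30E samples. The sample descriptions list both plasmids for every sample and were followed.

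The files pair no record with a gene name, so records are given by identifier, at most 2 per direction in a comparison, and no role can be stated for them. For the same reason the identity of the cells and the level of the transfected receptor were not checked against marker genes. Human probes measured RNA from a monkey here, so each probe was compared only with itself.

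Each array held 43376 spots other than controls, of which 60.5% to 67.0% were well above background, and 0 were saturated. The arrays came on 3 slides of 4. All Y30F-DMSO arrays were on slide 1 together with Y30F-DEX replicate 1. All Y30E-DEX arrays were on slide 3 together with Y30E-DMSO replicate 3. Slide 2 combined the remaining arrays of the divided groups. These were replicates 2 and 3 of Y30F-DEX with replicates 1 and 2 of Y30E-DMSO. Slide 2 had the most spots above background, 28335 to 29067 against 26256 to 28154 on the other slides. Slide 1 differed in another measure. The median of an array minus its 75th percentile was -3.44 to -3.45 (log2) there and -3.21 to -3.36 on slides 2 and 3. The SD over records of the log2 difference between replicates was 0.155 to 0.220 where they shared a slide and 0.239 to 0.309 where they did not. Results are therefore given with and without a term for the slide. The labels do not say whether replicates were separate cultures, and p-values then refer to the spread among these arrays alone, which may be technical. Signals below are set to a common 75th percentile of 807.8, and ± marks limma's standard error of a log2 difference unless it is called an SD.

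No record passed the test for a difference between the receptors (limma, Benjamini-Hochberg adjustment, threshold 0.05): 0 of 18424 were called, which is 0%, and the smallest adjusted p was 0.136. At an unadjusted p under 0.05 there were 1866 records (10.1%), where 921 would be expected if no record differed. The dexamethasone effect was lower with Y30E for 1254 of them and higher for 612, so that 67.2% were lower. This split depended on the scaling of the arrays: 41.6% were lower with quantile normalization, and 16.4% with median centring, which moved the median difference over all records to 0.17 (log2) from -0.01. The 95% confidence interval of the difference stayed inside 1.5-fold in both directions for 15090 records (81.9%) and within 2-fold for 16980 (92.2%). The count of calls rested on single arrays. Without Y30F-DEX replicate 1, 825 records passed, 774 of them lower in Y30E, and without Y30E-DMSO replicate 3, 77 passed, 42 of them lower. These are the arrays of the divided groups that lay on slides 1 and 3, so without either of them a whole group came from slide 2. With array weights 678 passed, 535 of them lower, and with slide as a block as well 16 passed. Without Y30E-DMSO replicate 1 the number at an unadjusted p under 0.05 was 1217. RNA came from whole cultures, so a change in the number of cells that carry a transcript and a change per cell cannot be told apart.

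The smallest p-values with a lower effect in Y30E belonged to dim records. Among RefSeq records of types NM and NR that kept their sign under the slide term and without each array in turn, NM_138969 and NR_110458 had the smallest. Records of other types were left out of this choice, and some of them had a smaller p-value than NR_110458. NM_138969 had signals of 136.7, 110.5 and 126 in Y30F-DMSO and of 158, 183 and 166 in Y30F-DEX. With Y30E its signals were 150.2, 154 and 164 under DMSO and 113, 118 and 109.5 with dexamethasone. Dexamethasone arrays thus lay above all DMSO arrays with Y30F and below all of them with Y30E, with no overlap in either. The effects were 0.44 ± 0.08 with Y30F (limma adjusted p = 0.0179) and -0.46 ± 0.08 with Y30E (adjusted p = 0.0136). Neither passed with slide as a block, at 0.35 ± 0.11 (adjusted p = 0.300) and -0.53 ± 0.11 (adjusted p = 0.0810). The difference was -0.90 ± 0.12, which did not pass (adjusted p = 0.136), and the blocked value was -0.88 ± 0.16 (adjusted p = 0.226). NM_138969 was 1 of 3 records that passed in opposite directions with the 2 receptors, all 3 in the dimmest set described below and all higher with Y30F. Of 347 records called with Y30F (1.88%) and 438 with Y30E (2.38%), 244 were called with both, 70.3% and 55.7% of the lists, and 241 of these went the same way. With slide as a block 122 were called with Y30F (0.662%) and 161 with Y30E (0.874%), 75 with both, and 0 of these were opposed.

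NR_110458, a non-coding RefSeq record, had signals of 128, 118 and 119 in Y30F-DMSO and of 125, 222 and 192 in Y30F-DEX. The first of the 3 Y30F-DEX arrays, on slide 1, lay among the DMSO arrays of that slide, and the other two, on slide 2, lay above them. With Y30E the signals were 183, 202 and 160.0 under DMSO and 87.2, 85.5 and 94.8 with dexamethasone, with no overlap. The difference was -1.54 ± 0.24 (adjusted p = 0.149) and came to -0.88 ± 0.15 with slide as a block (adjusted p = 0.165). Within slide 1 dexamethasone moved this record by 0.04 ± 0.11 with Y30F, and within slide 3 by -0.84 ± 0.11 with Y30E (adjusted p = 0.00590), each resting on 1 array of a divided group. The difference passed the threshold with median centring (-1.36, adjusted p = 0.0342).

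In the other direction, with a higher effect in Y30E, the smallest p-values among NM and NR records that kept their sign were those of NM_018289 and NM_005618. NM_018289 had signals of 61.3, 61.6 and 60.6 in Y30F-DMSO and of 49.7, 53.0 and 51.0 in Y30F-DEX, all lower. With Y30E its signals were 52.5, 59.2 and 55.9 under DMSO and 69.6, 73.9 and 64.7 with dexamethasone, all higher. The effect with Y30F was -0.26 ± 0.06 (adjusted p = 0.0710, not past the threshold) and with Y30E it was 0.31 ± 0.06 (adjusted p = 0.0236). The Y30E effect did not pass with slide as a block (0.31 ± 0.09, adjusted p = 0.328). The difference of 0.57 ± 0.09 did not pass (adjusted p = 0.136), nor did the 0.61 ± 0.13 with slide as a block (adjusted p = 0.488). It was 0.19 with the normexp background correction, which adds an offset of 50 to every signal.

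NM_005618 rose with both receptors. Its signals in Y30F cells were 41.8, 38.3 and 34.2 under DMSO and 188, 177 and 149.7 with dexamethasone. In Y30E cells they were 28.0, 25.8 and 30.8 under DMSO and 204, 215 and 226 with dexamethasone. The rise was 4.50-fold with Y30F (2.17 ± 0.10 on the log2 scale) and 7.65-fold with Y30E (2.93 ± 0.10), with adjusted p-values of 1.56e-06 and 8.33e-08. The Y30E arrays were lowest under DMSO and highest with dexamethasone, without overlap with the Y30F arrays of the same treatment. No slide held both receptors under the same treatment, so this separation cannot be told apart from slide. Y30E minus Y30F was -0.43 ± 0.10 under DMSO (limma adjusted p = 0.170) and 0.33 ± 0.10 with dexamethasone (adjusted p = 0.250). With slide as a block these were -0.29 ± 0.17 (adjusted p = 0.791) and 0.20 ± 0.17 (adjusted p = 0.996). The difference of 0.77 ± 0.14 was not past the threshold (adjusted p = 0.201), and it came to 0.49 ± 0.18 with slide as a block and to 0.23 with normexp. The calls of these 4 records depended on single arrays as the count did, since all 4 passed without Y30F-DEX replicate 1 and all 4 passed without Y30E-DMSO replicate 3. They also passed with array weights over all 12 arrays, with adjusted p-values of 0.00848 for NM_138969, 0.0135 for NR_110458, 0.0244 for NM_018289 and 0.0408 for NM_005618. With array weights and slide as a block together none of the 4 passed. The adjusted p-values were then 0.0715, 0.0817, 0.287 and 0.859 in the same order.

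**Figure D1:**
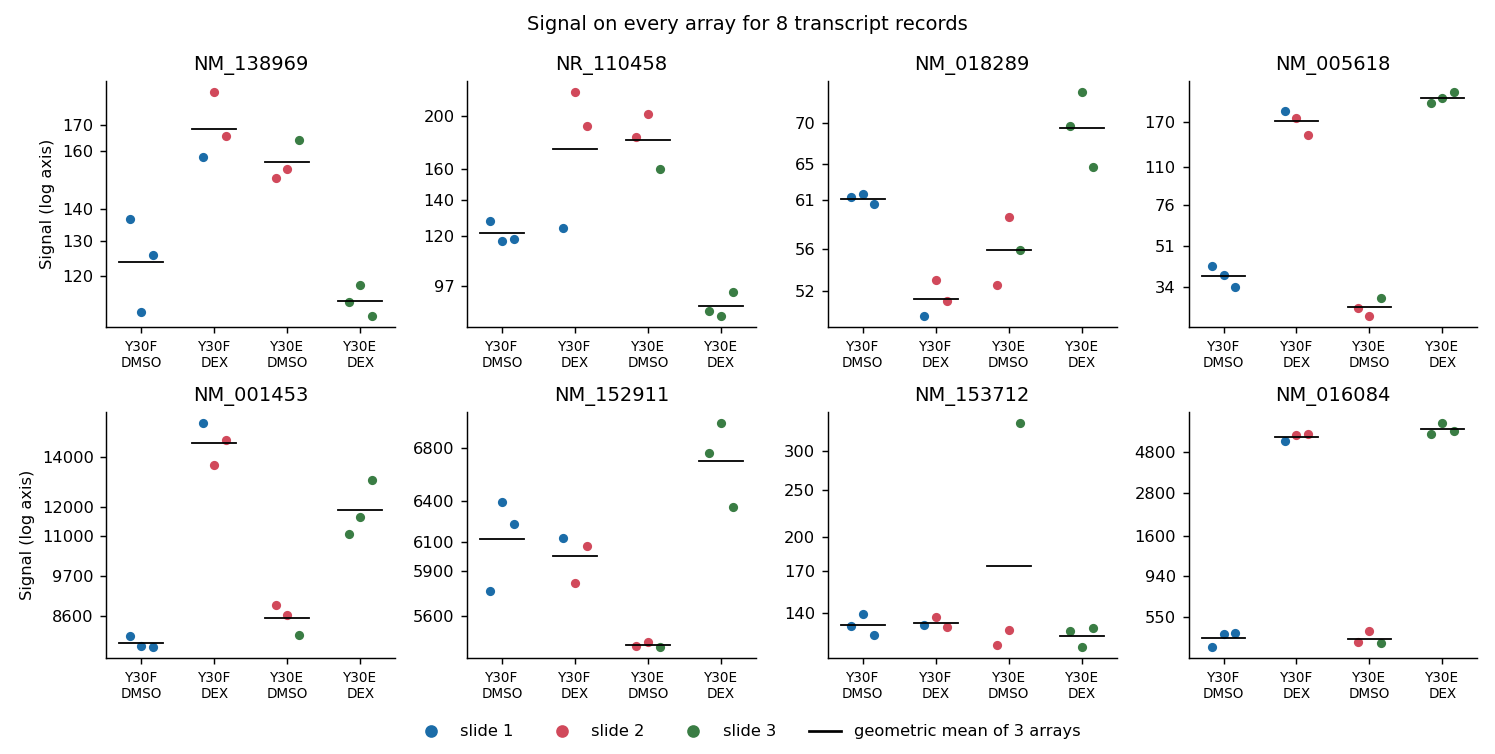
Signal (log axis, set to a common 75th percentile) of 8 transcript records on each of the 12 arrays, by group, with points coloured by slide and lines at the geometric mean of 3 arrays. NM_138969 rises with Y30F and falls with Y30E, NM_016084 rises by like amounts with both, and NM_153712 has a single high point, Y30E-DMSO replicate 3 at 342, with the other 11 arrays between 119 and 139.

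Without a slide term the excess of small p-values lay in dim records. The 18424 records were ranked by mean signal over the 12 arrays and divided into 3 sets of equal size, called dimmest, middle and brightest here. Mean signals ran from 26.7 to 231 in the dimmest set (median 89.4), from 231 to 1584 in the middle set (median 603) and from 1585 to 358800 in the brightest set (median 5060). Signal is a property of the probe as well as of the transcript. In the dimmest set 1229 of 6142 records (20.0%) had an unadjusted p under 0.05, in the middle set 403 of 6141 (6.56%), and in the brightest set 234 of 6141 (3.81%). The expected number was 307 in each. With slide as a block the counts were 413, 196 and 102, in all 711 against 921 expected. Of the 1229 dim records 958 (77.9%) had the lower effect in Y30E, against 83 of the 234 bright ones (35.5%). This contrast in direction did not hold with slide as a block, where 276 of 413 dim (66.8%) and 63 of 102 bright records (61.8%) were lower. Without the slide term the share with an unadjusted p under 0.05 was 22.6% among the 1843 dimmest records and 2.60% among the 1843 brightest. With slide as a block these shares were 8.52% and 0.814%. The test draws each record's spread toward a value shared by all records. When each set had a value of its own the shares were 17.2%, 7.60% and 5.47%, with 0 calls and 336 bright records at an unadjusted p under 0.05. With slide as a block as well they were 4.58%, 3.84% and 2.90%, with 5 calls. With the shared value and no slide term, leaving out Y30E-DMSO replicate 1 gave middle and brightest counts of 225 and 107. Leaving out Y30F-DEX replicate 3 gave a brightest count of 132. Median centring gave 1389 and 1374 in these sets, with 1 of the 1374 lower in Y30E.

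The sizes of the differences narrowed with signal in the same order. Their SD over records was 0.434 (log2) in the dimmest set, 0.157 in the middle set and 0.0965 in the brightest set. Differences over 2-fold numbered 310, 17 and 0, and 297 of the 310 were lower in Y30E. The median distance from the estimate to the end of its 95% interval was 0.376, 0.224 and 0.198. The interval stayed inside 1.5-fold in both directions for 53.2% of the dimmest, 93.6% of the middle and 98.9% of the brightest records, and within 2-fold for all but 2 of the 6141 brightest. With slide as a block the interval of the brightest set lay within 1.5-fold for 93.2%. Among record types the share with an unadjusted p under 0.05 was 8.59% for NM records, 15.5% for other RefSeq records and 14.2% for the rest. These types differ in signal, since NM records made up 61.6% of the dimmest and 80.1% of the brightest set, and within the dimmest set the shares were 18.7%, 21.8% and 22.1%.

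**Figure D2:**
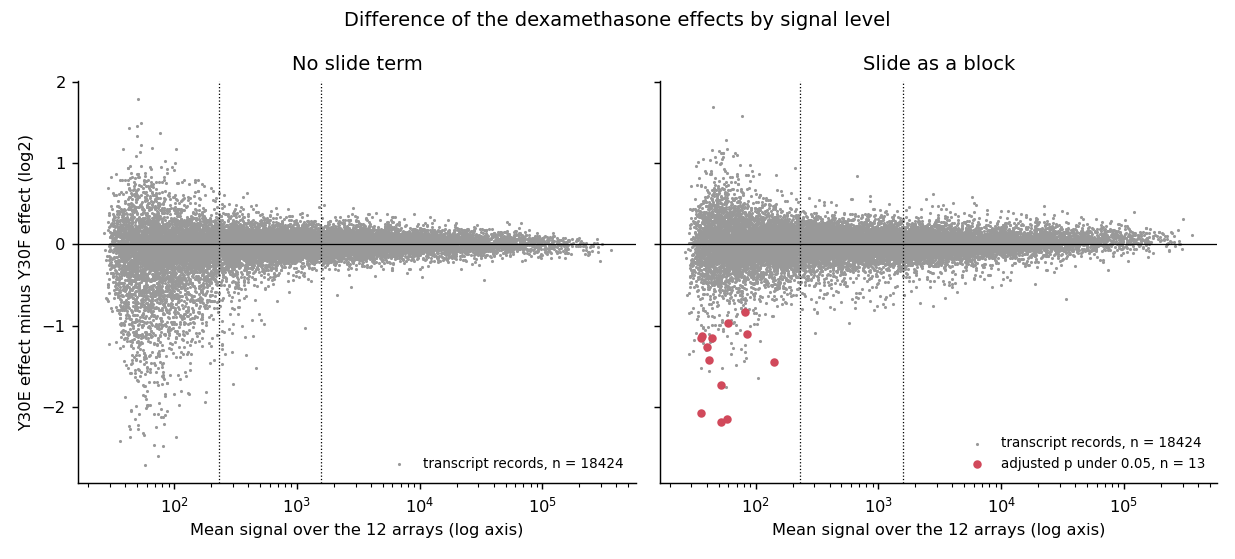
Difference of the dexamethasone effects (log2, Y30E minus Y30F) against mean signal (log axis) for 18424 records, without a slide term on the left and with slide as a block on the right. Dotted lines divide the records into 3 sets. Without the slide term the dim records spread mostly downward, to 310 differences over 2-fold in the dimmest set, and with it 66 are over 2-fold there and the 13 records that pass, in red, are all dim and lower in Y30E.

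**Figure D3:**
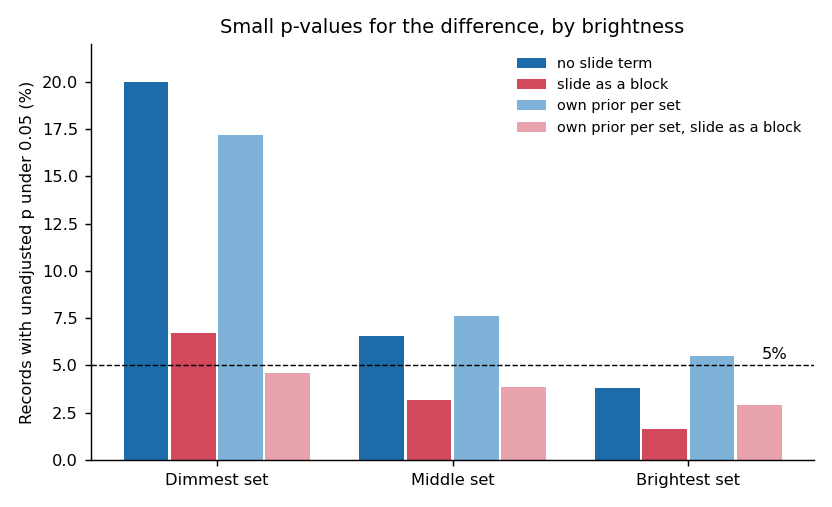
Percent of records with an unadjusted p under 0.05 for the difference, by set, in 4 fits (bars), with a dashed line at 5%. Without a slide term the share falls from 20.0% in the dimmest to 3.81% in the brightest set, and under the slide block it is 6.72% and 1.66%.

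In the brightest set the 2 records with the smallest p-values and a higher effect in Y30E were NM_152911 and NM_173647. Those with a lower effect were NM_001453 and NM_014423, in both cases among NM and NR records that kept their sign. NM_001453 rose with both receptors. It had signals of 8088, 7825 and 7814 in Y30F-DMSO and of 15540, 13650 and 14730 in Y30F-DEX, and of 8884, 8627 and 8109 in Y30E-DMSO and 11050, 11630 and 13040 in Y30E-DEX. The dexamethasone arrays did not overlap between the receptors, and all Y30F-DEX arrays were higher. They shared no slide with the Y30E-DEX arrays, so this separation cannot be told apart from slide. Under dexamethasone Y30E minus Y30F was -0.30 ± 0.07 (limma adjusted p = 0.219), and -0.14 ± 0.13 with slide as a block (adjusted p = 0.996). The rise was 1.85-fold with Y30F (adjusted p = 7.82e-05) and 1.39-fold with Y30E (adjusted p = 0.00440). The difference was -0.41 ± 0.10, which did not pass (adjusted p = 0.370), and -0.42 ± 0.14 with slide as a block. A dimmer probe of the same record rose by 0.66 and 0.57 (log2), with a difference of -0.09 ± 0.09.

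NM_014423 had signals of 1455, 1524 and 1532 in Y30F-DMSO and of 1638, 1499 and 1641 in Y30F-DEX, which overlapped. In Y30E cells they were 1808, 1703 and 1829 under DMSO and 1435, 1540.0 and 1583 with dexamethasone, which did not. The difference was -0.31 ± 0.08 (adjusted p = 0.370), and that of 4 other probes of this record ran from -0.20 to 0.25. NM_152911 had signals of 5765, 6391 and 6230.0 in Y30F-DMSO and of 6125, 5816 and 6069 in Y30F-DEX, again overlapping. With Y30E it went from 5407, 5435 and 5403 under DMSO to 6764, 7000 and 6351 with dexamethasone. That effect was 0.31 ± 0.05 (adjusted p = 0.0130), and it did not pass in the blocked fit (0.31 ± 0.09, adjusted p = 0.239). The difference of 0.34 ± 0.08 did not pass (adjusted p = 0.368) and was 0.31 ± 0.12 with slide as a block. The dexamethasone effects for NM_173647 were -0.16 ± 0.07 and 0.22 ± 0.07, with group mean signals of 9336 and 8361 for Y30F and of 8441 and 9819 for Y30E. Its difference of 0.38 ± 0.10 (adjusted p = 0.370) fell to 0.20 ± 0.14 with slide as a block. With array weights the differences of these 4 bright records passed (adjusted p = 0.0408 for NM_152911, NM_173647 and NM_001453, and 0.0413 for NM_014423), and NM_152911 also passed without Y30F-DEX replicate 1 (adjusted p = 0.0472). With array weights and slide as a block together none of the 4 passed (adjusted p = 0.513 to 0.970).

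Slide 2 entered the difference with 1 sign throughout. It held arrays of Y30F-DEX and of Y30E-DMSO, and both groups are subtracted when the Y30F effect is taken from the Y30E effect. The shift of slide 2 was measured within each group, as Y30F-DEX replicates 2 and 3 minus replicate 1 (slide 2 minus slide 1) and as Y30E-DMSO replicates 1 and 2 minus replicate 3 (slide 2 minus slide 3). By construction, the difference without a slide term equals the difference with slide as a block minus 0.667 times the sum of these shifts. When group and slide were fitted jointly, 869 records (4.72%) differed between slides, 775 (12.6%) of them in the dimmest set, 93 (1.51%) in the middle set and 1 (0.0163%) in the brightest. The shift had an SD over records of 0.407 in Y30F-DEX and 0.367 in Y30E-DMSO in the dimmest set, and of 0.101 and 0.0955 in the brightest. It exceeded 2-fold upward in both groups for 110 records, 107 of them dim, and downward in both for 0. Across records, which are not independent and share these arrays, the shifts of the 2 groups had a Pearson correlation of 0.594 among dim, 0.252 among middle and -0.194 among bright records. NR_110458 was 0.73 higher on slide 2 in Y30F-DEX and 0.26 higher in Y30E-DMSO, and NM_138969 was 0.14 higher and 0.11 lower. What made the slides differ was not tested.

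**Figure D4:**
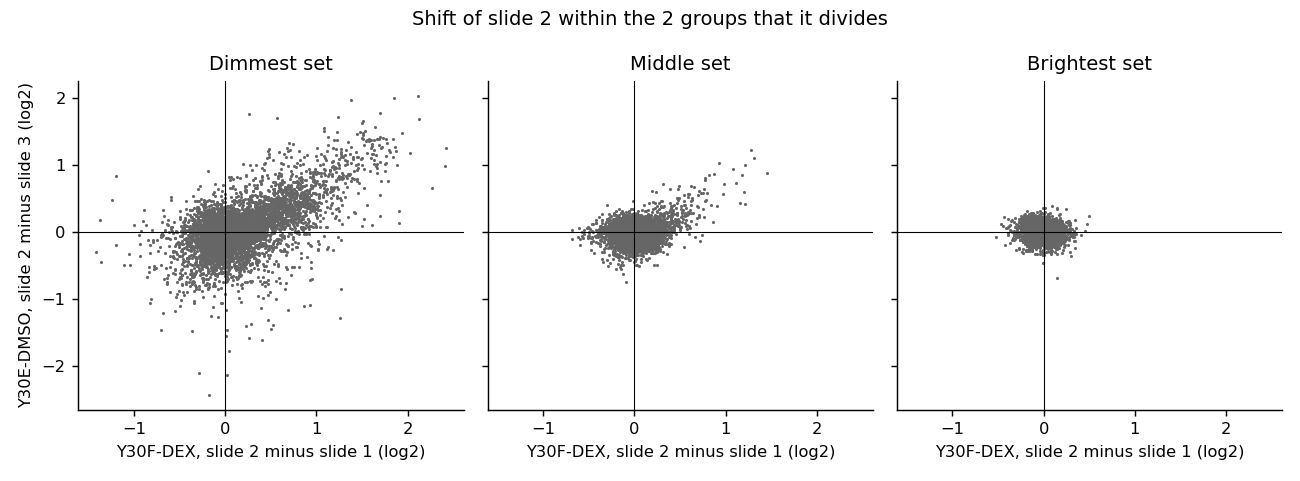
Shift of slide 2 (log2) within Y30F-DEX (horizontal) and within Y30E-DMSO (vertical) for each record, by set. In the dimmest set records spread toward the upper right, with 107 over 2-fold higher in both groups, and the brightest set has 0.

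The weight of this shift followed the brightness of the records. In the dimmest set the SD over records of the shift term was 0.461, against 0.290 for the difference with slide as a block. In the brightest set the shift term had an SD of 0.0832 and the blocked difference one of 0.121. Of the 1229 dim records, 72.8% had the same sign with slide as a block, where 63.5% of all dim records did, and of the 234 bright ones 99.6% did, where 76.3% of all bright records did. Both fits use the same arrays, so these shares are not independent support. The Y30F and Y30E effects, which use different arrays, had a correlation across dim records of -0.286 without and 0.257 with the slide term, and across bright records of 0.661 and 0.599.

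With slide as a block 711 records (3.86%) had an unadjusted p under 0.05, where 921 would be expected if no record differed. Of the 711, 413 were dim, 196 in the middle and 102 bright, and 247 were also among the 1866. That is 34.7% of the blocked list and 13.2% of the list without the slide term. The test called 13 records (0.0706%), all 13 lower in Y30E and all in the dimmest set, with mean signals from 35.8 to 140.1 and differences from -0.83 to -2.18. Here each receptor's effect is its value within a slide: Y30F-DEX replicate 1 against 3 Y30F-DMSO arrays on slide 1, and 3 Y30E-DEX arrays against Y30E-DMSO replicate 3 on slide 3. No slide held all 4 groups. Of the 13 records, 11 had their highest signal of the 12 arrays on Y30E-DMSO replicate 3, by 0.22 to 2.02 (log2) over the next array, and the other 2 had it on Y30F-DEX replicate 1. Over all records 5.94% were highest on Y30E-DMSO replicate 3, and over the dimmest set 8.89%. A separate value for the spread in each set left 5 calls with the block, and the fit without slide 2 gave 4, all lower in Y30E.

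Among the 13 the NM records with the smallest p-values were NM_153712 and NM_207430. XR_432995, a RefSeq model record named here after its values were seen, lay between them, with a blocked difference of -2.18 ± 0.20 (adjusted p = 0.00711). NM_153712 had signals of 120.4 and 129 on Y30E-DMSO replicates 1 and 2 and of 342 on replicate 3, and the other 9 arrays lay between 119 and 139. With slide as a block its difference was -1.44 ± 0.12 (adjusted p = 0.00711), and without the slide term -0.49 ± 0.43 (adjusted p = 0.785). The mean signal of the Y30E-DEX arrays, 126, was close to that of Y30F-DEX, 133, and of Y30F-DMSO, 132. Another 2 probes of NM_153712 had blocked differences of -0.19 ± 0.14 and 0.03 ± 0.18. NM_207430 had signals of 36.0, 35.5 and 99.6 in Y30E-DMSO and between 26.3 and 40.5 on the other 9 arrays. Its difference was -2.07 ± 0.20 in the blocked fit (adjusted p = 0.00730) and -0.84 ± 0.46 without the slide term (adjusted p = 0.590). Without Y30E-DMSO replicate 3, and with no slide term, the differences were -0.0017 for NM_153712 and -0.35 for NM_207430.

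Whether transcripts that respond to dexamethasone responded more with 1 receptor was asked of records chosen by the average of both effects, which in this balanced design is uncorrelated with their difference. The average effect passed for 784 records (4.26%), 549 higher and 235 lower with dexamethasone, and 17 (0.0923%) changed at least 2-fold, 14 upward and 3 downward. The count of 784 was 346 with slide as a block, 218 without slide 2, 452 with median centring and 1308 with array weights. For 13 of the 17 the change was larger with Y30E and for 4 with Y30F, and the median difference, counted as positive where Y30E had the larger change, was 0.15 (log2). Over all records tested the median difference, not signed in this way, was -0.01. None of the 17 passed for the difference (smallest adjusted p = 0.201, that of NM_005618), and 3 had an unadjusted p under 0.05, all dim. The interval of the difference lay within 1.5-fold for 11 of the 17 and within 2-fold for 14. With slide as a block 12 of these 17 changed more with Y30E, the median was 0.04, and 0 passed for the difference, with 1 at an unadjusted p under 0.05. Among the 18 records of at least 2-fold chosen in the blocked fit itself, 13 changed more with Y30E and the median was 0.13. The direction of the median was not stable: with normexp 4 of 10 such records changed more with Y30E and the median was -0.04, and with no filter on detection it was -0.03. It was 0.09 without Y30F-DMSO replicate 3, 0.09 without Y30E-DMSO replicate 2, 0.10 without Y30E-DEX replicate 2 and 0.07 without slide 2. The 8 dim records among the 17 all changed more with Y30E, with a median of 0.40, or 0.13 with slide as a block. The 6 bright ones had a median of 0.07, with 4 larger in Y30E.

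NM_016084 had the largest rise. Its signals were 371, 437 and 444 in Y30F-DMSO, 5565, 5984 and 6100.0 in Y30F-DEX, 397, 454 and 390.0 in Y30E-DMSO and 6095, 7038 and 6330.0 in Y30E-DEX. The rise was 14.1-fold with Y30F and 15.7-fold with Y30E, and the groups of the same treatment overlapped. The difference was 0.15 ± 0.12, with an interval from -0.12 to 0.43, and 0.31 ± 0.18 with slide as a block. NM_015193 had signals of 60.6, 66.7 and 67.4 in Y30F-DMSO, 445, 439 and 456 in Y30F-DEX, 69.8, 65.9 and 63.1 in Y30E-DMSO and 514, 432 and 443 in Y30E-DEX. It rose 6.90-fold and 6.97-fold, and the interval of the difference, 0.02 ± 0.10, ran from -0.21 to 0.24. The deepest falls by RefSeq transcripts were those of NM_018933 and NM_172006. NM_018933 went from 4857, 4219 and 3602 to 924, 1362 and 967 with Y30F, and from 3934, 4702 and 4172 to 1289, 1203 and 1231 with Y30E. Its effects of -1.97 ± 0.15 and -1.78 ± 0.15 differed by 0.20 ± 0.21, with an interval from -0.26 to 0.65. NM_172006 fell by 0.97 and 1.07 on the log2 scale, and the difference was -0.09 ± 0.18 (interval -0.48 to 0.30). For all 4 records the interval of the difference included 0.

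Among the 784 records of any size the median difference, signed in the same way, was 0.02, with 441 larger in Y30E and 343 in Y30F. The effects themselves were smaller here, with a median average effect size of 0.29 (log2) against 1.29 for the 17. The median differences of the 2 lists are therefore not a like comparison. Of the intervals 733 (93.5%) stayed inside 1.5-fold, against 81.9% over all records, and 776 inside 2-fold. The 1.5-fold bound is wider than the median average effect of these records, so this share does not show that their responses were equal. The test of the average uses the same spread as that of the difference. Records with a small spread pass it more readily, so narrow intervals follow in part from the choice. An unadjusted p under 0.05 was found for 56 (7.14%), below the 10.1% of all records, but only 238 of the 784 were dim. The shares were 13.4% for dim, 5.04% for middle and 3.35% for bright records. Over all records of these sets they were 20.0%, 6.56% and 3.81%. With slide as a block 0 of the 784 passed for the difference, and 20 had an unadjusted p under 0.05.

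**Figure D5:**
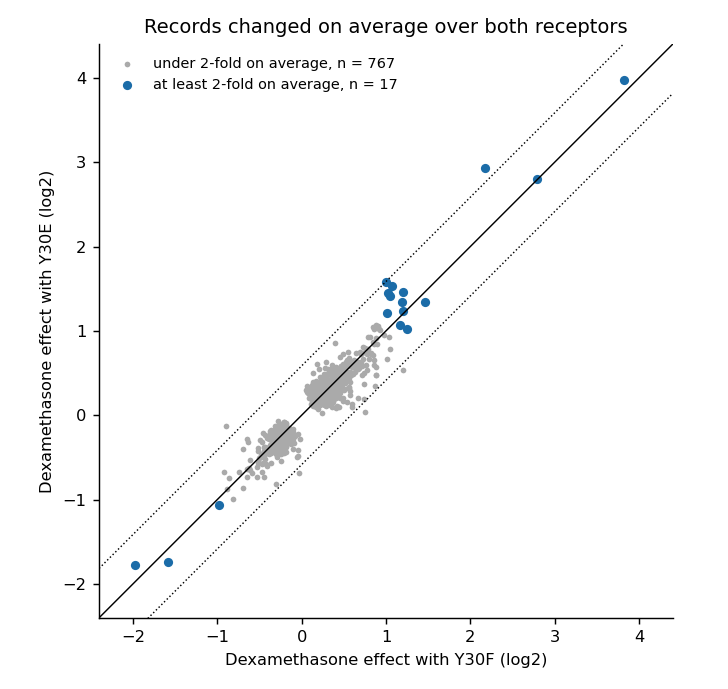
Dexamethasone effect with Y30E against that with Y30F (log2) for the 784 records whose average effect passed, with the 17 of at least 2-fold in blue. The solid line marks equal effects and the dotted lines a 1.5-fold difference, and NM_016084 at the upper right and NM_005618, above the upper dotted line, are 3.82 and 2.17 on the horizontal axis.

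Probes that measure the same record from another sequence followed the differences only in part. For the 258 records with an unadjusted p under 0.05 and another detected probe, 189 of 296 other probes (63.9%) had a difference of the same sign, against 55.6% of 5158 over all records with another probe. The share was 62.0% for dim records, where 56.0% of all had it, and 67.3% for bright ones, where 55.9% did. These counts are from the fit without a slide term. All probes of a record lie on the same arrays, so agreement in sign cannot be told apart from a slide shift that they share. Probes spotted 10 times on an array gave the error within an array. For 184 such probes the median standard error of the difference from spots alone was 0.0201, and from arrays it was 0.0882. In the dimmest set these were 0.0677 and 0.124, and in the brightest 0.0164 and 0.0818.

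Records just outside the detection rule had larger shares of small p-values than those inside. In a fit that also took probes well above background on all 3 arrays of 1 group, 447 records were detected on 11 arrays, with a median signal of 33.3, and 115 of them (25.7%) had an unadjusted p under 0.05, 99 of these lower in Y30E. Over the 1614 records not detected on all 12 arrays the share was 31.0%, and over those detected on all 12 it was 9.53%. A record seen in 1 group alone had to differ there to be taken, so these shares are a description.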

How the data were processed

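Total RNA of each sample was labelled with Cy3 and hybridised to its own Agilent whole human genome array (4x44 format), per the labels' protocols. The scanner files were made with Agilent Feature Extraction 12, per the submitters' processing notes. The deposited intensity used here is its gProcessedSignal, from which each array's own background had been subtracted, per the file headers; no scaling from array to array had been applied. The deposited series table held the same intensities: 0 of 540180 spot values differed by over 0.1%. Spot flags and slides came from the file headers.

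Control spots and 89 to 154 outlier spots per array were left out. The log2 signal of each spot was reduced by the 75th percentile of its array over non-control spots (signals of 706 to 876), and repeated spots were averaged. Detection on an array required that a share of 0.5 or more of a probe's spots be flagged well above background. For each record the detected probe with the highest mean was used. For 34 records a value was missing on at least 1 array because its spot was an outlier, and these were fitted on the remaining arrays.

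The test was limma 3.58.1 in R 4.3.3 (lmFit and eBayes on 4 group means, 8 residual degrees of freedom, 6 with slide as a block), with Benjamini-Hochberg adjustment over 18424 records and a threshold of 0.05. The contrasts were the difference, each effect and their average. The number of arrays limits the precision. The statistics were tested on simulated data. The comparison and the records were chosen with earlier results of these data known. The rule for named genes asked for gene symbols and fixed gene lists; the files pair no record with a symbol, so its order was applied to RefSeq NM and NR records, at most 2 per direction, and the lists and cell type markers could not be applied. Named records are those with the smallest p for the difference, over all records and in the brightest set, that kept their sign with slide as a block and without each array, the smallest p among calls with the block, and the largest average effects whose arrays did not overlap between treatments. The alternatives are given in the closing section. Those that join 2 settings, or use a separate prior for each brightness set, were added after the data were seen. The normexp correction used the median signal. The random block used statmod 1.5.0.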

Additional observations from a re-analysis of the deposited data

How the results depend on the processing

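The count of calls for the difference was 0 in the main test and with quantile normalization, normexp, other filters, every probe, a random slide block, a trended robust prior, the replicate block and a threshold of 0.1. It was 13 with a fixed slide block, 4 with median centring, 4 without slide 2, 678 with array weights, and 0 to 825 without 1 array. With 2 settings joined to the fixed block it was 5 (prior per set), 16 (array weights) and 4 (trended robust prior).

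The count at an unadjusted p under 0.05, 1866, was 4317 with median centring, 3028 with no filter, 711 with the slide block, 3856 with array weights, 622 without slide 2, and 695, 1049 and 688 in the joined settings. It was 1217 to 2490 without 1 array.

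By set, dimmest, middle and brightest, it was 413, 196 and 102 with the slide block, 2102, 1055 and 699 with array weights, and 415, 142 and 65 without slide 2. Median centring gave 1389 middle and 1374 brightest records, and no filter 1850 middle ones. The joined settings gave 281, 552 and 288 dim records, and 236 (prior) and 224 (trend) middle ones. Without 1 array the ranges were 850 to 1717, 225 to 536 and 107 to 322.

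Records called for the average effect, 784, numbered 452 with median centring, 346 with the slide block, 1308 with array weights, 218 without slide 2, and 396, 422 and 403 in the joined settings, and 562 to 847 without 1 array.

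The responders' median of 0.15 was 0.22 with quantile normalization, 0.33 with median centring, -0.045 and 0.036 with normexp (75th percentile, quantile), 0.030 with the filter on 1 group, -0.034 with no filter, 0.068 without slide 2, 0.021 over all 784, and 0.087 to 0.19 without 1 array.

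The named records kept their sign in each of 31 settings, but much of this was fixed in advance. Those with the smallest p for the difference were chosen to keep it with slide as a block and without each array. Settings that changed only the filter or the spread left the estimates as they were. In 407 cases the side of the threshold was kept, and in 27 a difference came past it.

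No pairing of arrays by replicate number was seen. Deviations of same-numbered arrays from their group means correlated from -0.47 to 0.30, above 0.1 in 3 of 18 pairs. Of 12 arrays 3 correlated best with their own number. The deviations hold the slide differences within the divided groups, so they cannot decide whether numbers pair cultures. The replicate block gave 0 calls and 1691 records at an unadjusted p under 0.05.

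Dim records limit the comparison: 53.2% of their intervals lay within 1.5-fold, against 98.9% of the brightest. Differences near background can be missed, and blocked effects rest on single arrays.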
